A study of Mus musculus with 9 samples.

Results

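B16F10 is an established line of mouse melanoma cells derived from the pigment-producing melanocytes of the skin. The 3 libraries described here are the non-targeting control line of a study of 9 libraries, in which the other 6 come from B16F10 lines with knockdown or overexpression of Sirpa, a membrane receptor that binds Cd47. The 3 were identified by their label, and the gene levels of the other lines were not used. All cells were grown in complete DMEM with serum and antibiotics, and total RNA was sequenced as paired reads of 150 bases. The labels call the libraries biological repeats of 1 cell line. They do not say how the control line was made, nor whether it is 1 clone or a pool, so the spread given below is between these 3 samples.

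Levels are given as TPM, the transcripts of a gene in every 1000000 transcripts, which corrects for transcript length and so allows genes to be set side by side. The TPM of all annotated transcripts of a gene were summed. A gene counts as expressed at 1 TPM or more in all 3 libraries, and as listed at 0 where no read was assigned to it in any of them. Of 21785 annotated protein-coding genes, 49.1% were expressed and 35.4% were listed at 0, and the shares of the gene lists below stand against these. A count of 0 in these libraries allows up to 0.183, 0.181 and 0.148 counts in every 1000000 (CPM; 3 counts of the total, for counting error only). Library totals were 16404396, 16582986 and 20300950 estimated counts. Values after ± are the SD over the 3 libraries (n = 3). No group was compared, so no test was made, and neighbouring genes whose ranges over the 3 libraries overlap are not put in order. Strand was not kept in the libraries, and a gene and an antisense transcript over it therefore cannot be told apart. In bulk RNA, a low level shared by all cells and a high level in a few cells also give the same value.

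Melanocytes arise from the neural crest and make melanin inside melanosomes, organelles related to lysosomes. Mitf, a basic helix-loop-helix transcription factor, is the central regulator of the lineage and acts on pigment genes together with Sox10 and Pax3. Tyr carries out the first, rate-limiting oxidation of tyrosine, Dct and Tyrp1 act later in the synthesis of eumelanin, and Pmel forms the fibrils on which the pigment is laid down. B16F10 cells are widely used as a transplantable tumour and are known to present little MHC class I at rest.

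The label of melanoma cells was checked against the lineage genes. All 7 melanocyte markers were expressed at over 100 TPM in each library. Their summed level was 14674, 14917 and 14803 TPM. Tyrp1 read 4775, 4601 and 4601 TPM, Dct read 3738, 3779 and 3744 TPM, and Pmel read 3552, 4065 and 3951 TPM. These are among the most abundant mRNAs of the cell. Mlana, a small melanosomal membrane protein, read 1984, 1894 and 1896 TPM. Sox10 read 296, 271 and 286 TPM, Mitf 181, 165 and 168 TPM and Tyr 148, 142 and 157 TPM.

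The 3 melanin synthesis enzymes differed widely in level. Tyrp1 averaged 4659 ± 100.4 TPM and Dct 3754 ± 21.9 TPM, and their ranges did not overlap. Tyr averaged 149 ± 7.55 TPM. The ratio of Tyrp1 to Tyr was 32.4, 32.3 and 29.3 in the 3 libraries, and that of Dct to Tyr 25.3, 26.5 and 23.8. The enzyme of the first step was thus the least abundant mRNA of the 3 in every library. Together, Tyrp1, Pmel, Dct, Mlana and Gpnmb made up 1.59 ± 0.0135% of all TPM (SD, n = 3). Gpnmb, a glycoprotein of melanosomes and lysosomes, stood at 1719 ± 17.1 TPM.

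The proximal promoters of the 3 enzyme genes are shown because they share a sequence around the E-box CATGTG, the type of site that Mitf is known to bind. They are the 250 bases before the annotated start, 5′ to 3′ on the gene's own strand, from RefSeq with coordinates on GRCm38.p6. The capitals mark GTCATGTGCT, which each of them holds once on the strand shown.
Tyrp1, chr4:80833963-80834212, plus strand: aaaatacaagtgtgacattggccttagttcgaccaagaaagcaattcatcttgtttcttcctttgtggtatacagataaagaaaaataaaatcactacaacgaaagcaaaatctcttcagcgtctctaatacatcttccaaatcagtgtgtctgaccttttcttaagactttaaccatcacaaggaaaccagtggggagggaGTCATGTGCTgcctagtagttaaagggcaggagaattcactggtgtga
Dct, chr14:118052247-118052496, minus strand: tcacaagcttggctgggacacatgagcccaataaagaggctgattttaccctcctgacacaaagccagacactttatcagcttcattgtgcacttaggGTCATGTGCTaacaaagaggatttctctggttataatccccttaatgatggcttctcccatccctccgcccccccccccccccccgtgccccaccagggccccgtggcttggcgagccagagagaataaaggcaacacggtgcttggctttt
Tyr, chr7:87493513-87493762, minus strand: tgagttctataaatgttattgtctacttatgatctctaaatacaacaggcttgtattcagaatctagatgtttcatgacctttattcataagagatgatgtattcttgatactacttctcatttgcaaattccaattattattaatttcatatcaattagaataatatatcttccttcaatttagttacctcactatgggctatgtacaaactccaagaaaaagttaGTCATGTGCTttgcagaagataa
The stretch ended 38 bases before the start in Tyrp1, 142 bases in Dct and 13 bases in Tyr. On either strand it occurs in 51 of 32851 mouse promoters of the same length (0.155%), while CATGTG alone, which lies inside it, occurs in 4025 (12.3%). GTCATGTGCT was found as the longest stretch shared by these 3 promoters, so that all 3 hold it was fixed in advance. The sequence is a description of the promoters, and no binding was measured here. The 3 genes that hold it ranged from 149 ± 7.55 TPM to 4659 ± 100.4 TPM.

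The remaining melanosome genes were all expressed. Among 13 genes for melanosome structure and transport across its membrane, 12 averaged 10 TPM or more and 7 averaged 100 TPM or more. Slc24a5, a cation exchanger of the pigment organelle, read 488, 492 and 475 TPM, and 40.2% of its sequence also occurs in other annotated genes, mostly Myef2. Slc45a2, a melanosomal transporter, read 350.3, 364 and 356 TPM. Syt4, a vesicle synaptotagmin, read 246, 244 and 245 TPM, and Trpm1, a cation channel, read 163, 169 and 164 TPM. These 4 genes varied little between libraries, and each kept its place in the order. Oca2, a channel that raises melanosomal pH, was lower at 22.96 ± 0.956 TPM, and the copper pump Atp7a stood at 25.2 ± 0.966 TPM. Slc7a11, the cystine carrier that feeds pheomelanin and glutathione synthesis, stood at 15.75 ± 0.913 TPM.

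All 24 genes for melanosome biogenesis and transport were expressed, 20 of them at a mean of 10 TPM or more. The tetraspanin Cd63, which sorts Pmel in endosomes, led with 1126 ± 47.1 TPM. Rab38 and Rab32, small GTPases that deliver the enzymes to the organelle, averaged 295 ± 7.01 TPM and 36.98 ± 1.61 TPM. Rab38 was higher than Rab32 in every library. By summed TPM, the 3 members of the complex that tethers melanosomes to actin were within 2-fold of each other. Myo5a averaged 154.5 ± 3.78 TPM, Mlph 102 ± 2.635 TPM and Rab27a 82.9 ± 2.67 TPM. Of the Myo5a level, 43.6 TPM lay on the 801-base Myo5a-211 and 37.8 TPM on the 684-base Myo5a-203. These short transcripts held 3.72 and 2.50% of the counts of Myo5a, so its place among the 3 depends on the scale. At the low end, Bloc1s5 and Hps6 overlapped in range, at 7.94 ± 2.18 TPM and 6.098 ± 1.03 TPM.

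Of 23 lineage transcription factors, 12 were expressed and 3 were listed at 0. Sox10 was 1.66 ± 0.0366 times as abundant as Mitf (SD, n = 3). Ets1 averaged 201 ± 9.72 TPM, between Sox10 and Mitf. Pax3 stood at 92.95 ± 1.98 TPM, Tfap2a, a factor that acts beside Mitf, at 79.4 ± 5.57 TPM, and Zeb2 at 59.6 ± 3.45 TPM. The Mitf relatives Tfe3 and Tfeb, which regulate lysosomal genes, were lower, at 31.9 ± 2.86 TPM and 13.6 ± 0.523 TPM. Jun, whose range overlapped that of Tfe3, read 25.4, 30.3 and 30.8 TPM. Some factors linked with loss of the melanocyte state or with other neural crest fates were low or listed at 0. Zeb1 averaged 0.0761 ± 0.08485 TPM against the level of Zeb2 given above. Snai2 read 3.21, 1.797 and 2.35 TPM, and Twist1, Foxd3 and Sox2 were listed at 0. Sox9 was expressed at 7.42 ± 0.5303 TPM. Irf4, which acts with Mitf on the Tyr gene in human pigment cells, averaged 0.09795 ± 0.0737 TPM from 18 counts over the 3 libraries.

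**Figure D1:**
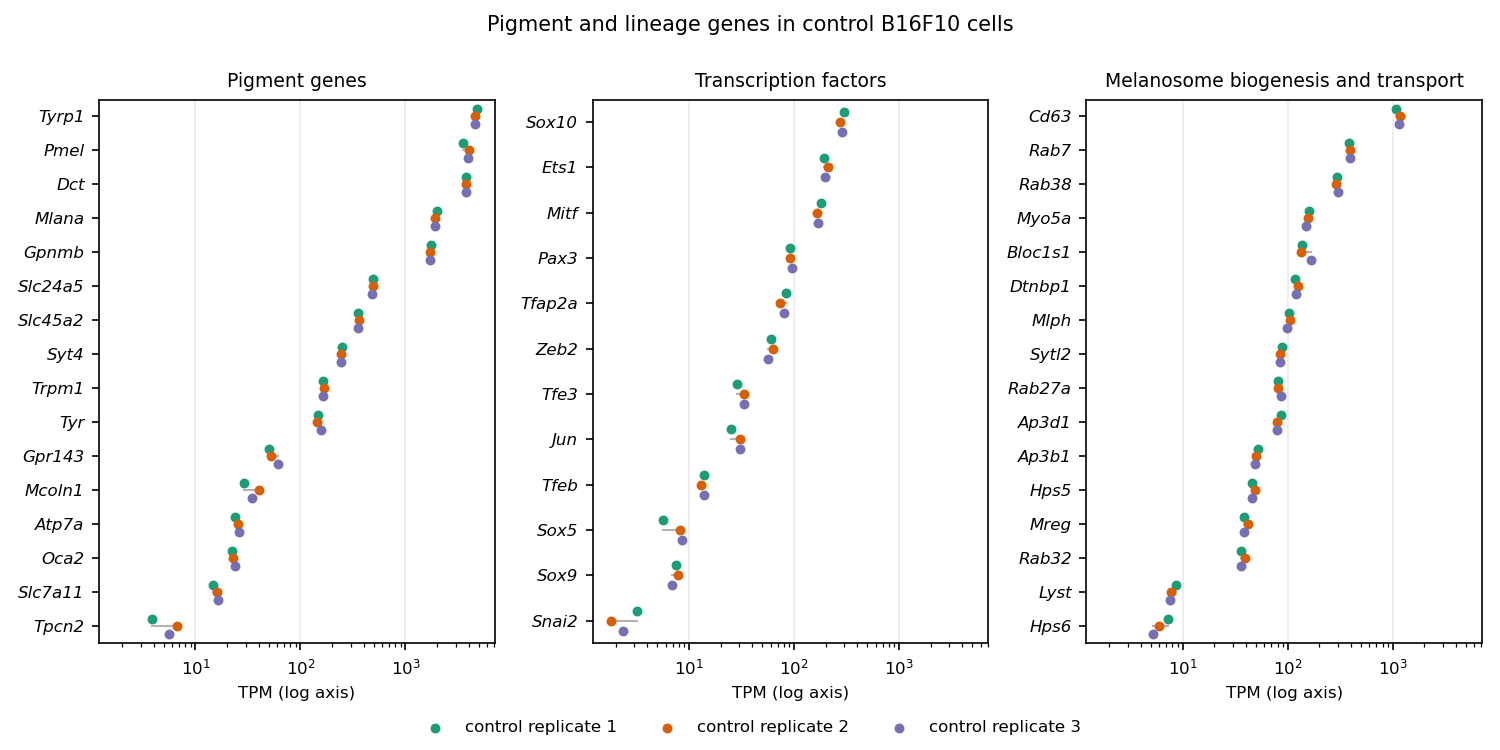
Level of pigment, transcription factor and melanosome transport genes in the 3 control libraries. Each point is 1 library (TPM, log axis) and the grey line spans the 3. Tyrp1, Pmel and Dct lie at 3552 TPM or more in every library, while Tyr lies between 142 and 157 TPM.

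The transcripts of Mitf fell into groups by start site. Mitf is known to have several promoters, the last of which gives the melanocyte isoform, and RefSeq lists 3 starts in its table of promoters. Transcripts from the far-upstream start held 48.7, 54.3 and 49.7% of the TPM of Mitf. Those from the third start held 50.9, 45.7 and 50.1%, and the one from the middle start was listed at 0. By TPM, the ranges of the 2 groups overlap over the 3 libraries, so they are not put in order. By counts, the far-upstream start held 77.4% and the third start 22.4% on average. TPM divides counts by length: the main far-upstream transcript, Mitf-202, is 4881 bases long and the main one of the third start, Mitf-201, 1921 bases. Mitf-202 ends 2642 bases beyond Mitf-201 and is the only annotated Mitf transcript with that longer end. Reads from that stretch can therefore be assigned only to the far-upstream start, whichever start the RNA came from. For this reason the shares do not tell which start was used more.

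The promoter at the third start is shown because it is the only one of the 3 to hold the cAMP response element TGACGTCA, the site through which signalling from Mc1r is known to reach Mitf. It is the 250 bases before that start, 5′ to 3′, with the element in capitals.
Mitf, last of the 3 starts, chr6:97991533-97991782, plus strand: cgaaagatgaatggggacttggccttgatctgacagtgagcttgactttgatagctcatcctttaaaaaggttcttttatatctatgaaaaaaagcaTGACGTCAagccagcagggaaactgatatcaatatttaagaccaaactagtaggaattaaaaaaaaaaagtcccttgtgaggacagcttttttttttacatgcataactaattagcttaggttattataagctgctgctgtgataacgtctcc
The element ends 145 bases before the start. It reads the same on both strands and is found in 508 of 32851 promoters of this length (1.55%). None of the 3 Mitf promoters holds CATGTG in this window. Mc1r, the receptor for melanocyte-stimulating hormone, read 73.5, 73.2 and 71.3 TPM.

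Receptors of melanocytes were expressed unevenly. In a list of 11, 8 were expressed and 2, Ednrb and Lpar1, were listed at 0. Met, the receptor of hepatocyte growth factor, was highest at 220.5 ± 1.91 TPM, and its ligand Hgf was listed at 0. Mcam, an adhesion molecule of melanoma cells, stood at 86.9 ± 5.16 TPM, and Gpr143, a receptor in the melanosome membrane, at 54.55 ± 5.54 TPM. Kit, the receptor that melanoblasts need to survive, read 2.03, 3.82 and 1.83 TPM. Met exceeded Kit by 109, 58.2 and 119 times in the 3 libraries, and Kit rests on only 337 counts in all. Its ligand Kitl read 4.055, 2.58 and 8.43 TPM. Ednrb, the endothelin receptor of melanoblasts, and its ligand Edn3 were both listed at 0.

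Of 58 receptor tyrosine kinases, 22 were expressed, 15 were listed at 0 and 21 lay between. After Met came the collagen receptor Ddr2 at 83.8 ± 10.4 TPM, the ephrin receptor Epha3 at 81.8 ± 0.869 TPM and the Wnt-binding Ryk at 76.03 ± 3.235 TPM. Ddr2 and Epha3 overlapped in range. The other collagen receptor, Ddr1, stood at 53.9 ± 3.83 TPM. Erbb3 was the most abundant of its family at 20.25 ± 1.88 TPM, Erbb2 stood at 6.31 ± 0.306 TPM, and Egfr was listed at 0. Axl and Tyro3, receptors of Gas6, averaged 15.1 ± 1.18 TPM and 9.76 ± 1.37 TPM. Kdr, Tek, Tie1, Ntrk2, Alk, Ros1, Flt3 and Ror2 were listed at 0. Pdgfra averaged 1.65 TPM, and 0.979 TPM without replicate 1.

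Integrins are pairs of an alpha and a beta chain that bind matrix or other cells, and 10 of the 26 subunits were expressed. Itgb1, the common beta chain, read 272, 266 and 265 TPM, more than any alpha chain. Its partners were led by Itga6, a laminin receptor chain, at 54.9 ± 1.85 TPM, and by Itgav at 43.3 ± 5.57 TPM. Itgb5, which pairs with Itgav, stood at 29.5 ± 6.15 TPM, and the fibronectin receptor chains Itga5 and Itga4 overlapped at 13.5 ± 0.518 TPM and 13.3 ± 1.59 TPM. Itgb3, the beta chain often followed in invasive melanoma, was low at 3.66 ± 0.2195 TPM. The leukocyte chains Itgam, Itgax and Itgad were listed at 0, as was the epithelial Itgb6.

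Receptors for cytokines and interferons were expressed in 16 of 34 cases. Cntfr, the alpha receptor of ciliary neurotrophic factor, and Il10rb, a shared chain of the IL-10 family, led and overlapped, at 73.1 ± 6.65 TPM and 70.3 ± 0.9797 TPM. All 4 chains that bind type I and type II interferon were expressed. Ifnar1 read 33.2, 35.4 and 34.3 TPM, Ifnar2 31.95, 30.4 and 30.2 TPM, Ifngr2 24.8, 29.7 and 25.1 TPM and Ifngr1 14.1, 16.5 and 17.9 TPM. The beta common chain Csf2rb and the receptors Il2ra, Il7r, Il21r and Csf3r of blood cells were listed at 0. Il11ra1 averaged 45.04 ± 7.55 TPM, but 57.7% of its sequence is shared with other annotated genes, most of it with Gm13305, so its level depends on how reads were divided between them.

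Among 16 death and TNF receptors, 7 were expressed. Tnfrsf12a, the TWEAK receptor, averaged 93.2 ± 5.73 TPM, Tnfrsf1a, the main TNF receptor, 69.2 ± 1.42 TPM, and Ltbr 49.55 ± 3.415 TPM. Tnfrsf10b, the mouse TRAIL receptor, stood at 10.3 ± 0.4435 TPM. Fas gave 9 counts in all, with 0.0739, 0 and 0.448 TPM, and its ligand Fasl was listed at 0. Cd40 was listed at 0 as well.

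The TGF-beta family was covered more fully, with 11 of 13 receptors expressed and none listed at 0. Eng, a co-receptor that is also an endothelial marker, read 125, 127.5 and 116 TPM. Tgfbr1 and Tgfbr2, the signalling pair for TGF-beta itself, averaged 19.7 ± 1.56 TPM and 12.2 ± 0.263 TPM. Of 19 Notch, Wnt and Hedgehog receptors, 13 were expressed, led by Fzd7 at 44.6 ± 0.815 TPM, the Hedgehog transducer Smo at 36.7 ± 0.9865 TPM and the Wnt co-receptor Lrp6 at 31.7 ± 1.38 TPM. Notch2 stood at 9.17 ± 0.451 TPM, and Notch1 ranged more widely, with 10.15, 3.21 and 5.23 TPM. Among 47 nuclear receptors, 23 were expressed. The oxysterol receptor Nr1h2 was highest at 69.2 ± 1.95 TPM. Nr2f6, with 47.5% of sequence shared, mostly with Ocel1, Nr4a1 and Ppard overlapped in range, at 51.96 ± 3.33 TPM, 49.8 ± 0.366 TPM and 45.3 ± 9.44 TPM. Rarg, a retinoic acid receptor, read 30.8, 30.7 and 30.8 TPM. The steroid receptors Pgr and Esr2 were listed at 0, while Nr3c1, the glucocorticoid receptor, averaged 13.99 ± 2.015 TPM.

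**Figure D2:**
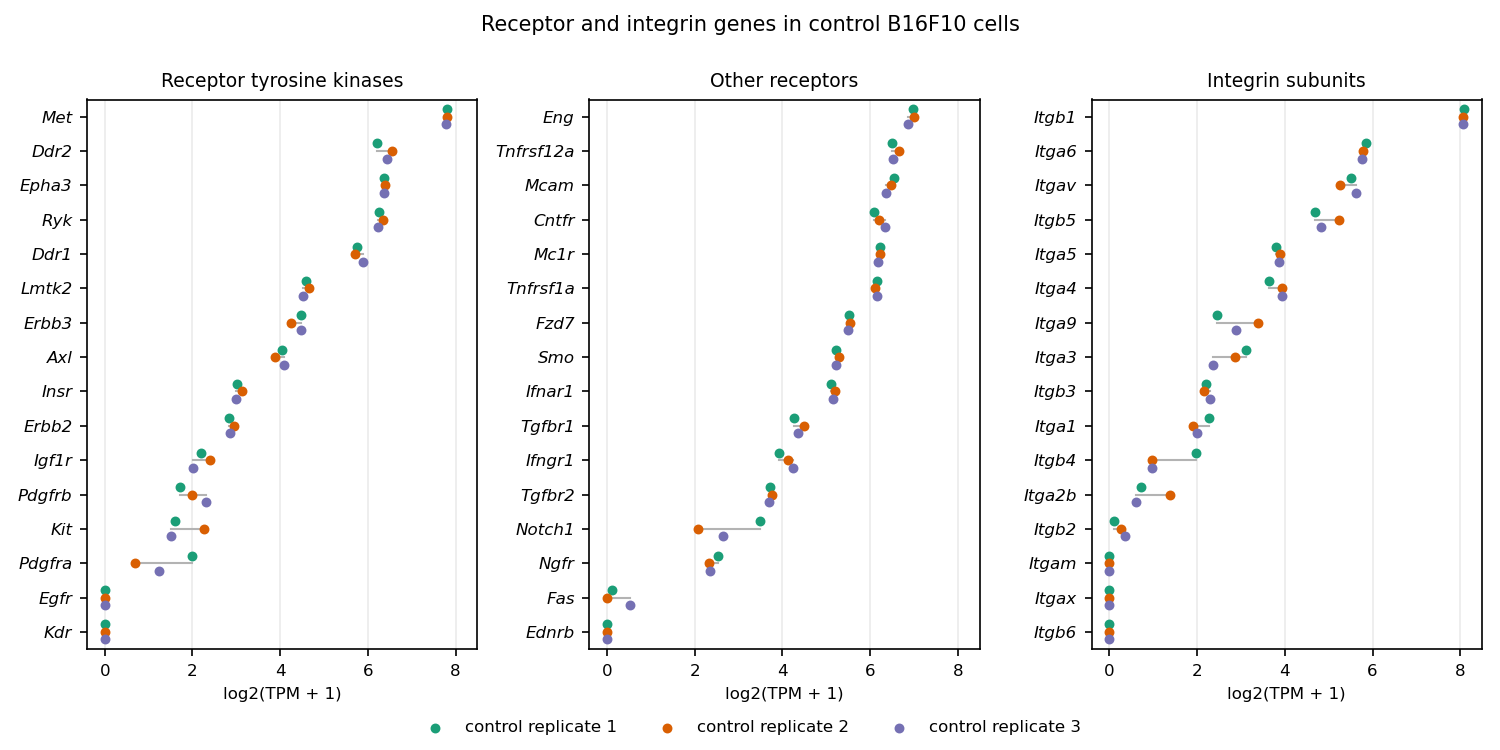
Receptor and integrin genes in the 3 control libraries, as log2(TPM + 1), so that a gene listed at 0 lies at 0. Each point is 1 library. Met and Itgb1 lie at 218.5 TPM or more in every library, and Egfr, Kdr, Ednrb, Itgam, Itgax and Itgb6 at 0.

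MHC class I molecules present peptides to CD8 T cells and consist of a heavy chain, B2m and a peptide loaded by Tap1 and Tap2. B2m read 518, 496 and 500.5 TPM, far above the classical heavy chains. H2-D1 read 59, 58.4 and 56.3 TPM and H2-K1 32.6, 24.9 and 30.1 TPM, and their ranges did not overlap. The ratio of B2m to H2-K1 was 15.9, 19.9 and 16.6, and that of B2m to H2-D1 8.77, 8.49 and 8.89. Of 20 class I genes, 8 were expressed and 8 were listed at 0, among them H2-Q6, H2-Q7 and H2-T3. H2-T23, the source of the Qa-1 molecule that NK cells read, was near the threshold with 1.83, 1.64 and 2.03 TPM. Class I genes resemble each other: 26.9% of the sequence of H2-D1, 22.8% of that of H2-K1 and 67.4% of that of H2-T22 occurs in other genes. Mr1, which presents vitamin metabolites, averaged 19.5 ± 2.13 TPM with 0.3% shared.

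Of 15 genes for class I peptide loading and the immunoproteasome, 11 were expressed, 3 gave counts below the threshold and 1 was listed at 0. The chaperones Calr, Canx and Pdia3, which act on most secretory proteins, averaged 1124 ± 34.4 TPM, 622 ± 18.1 TPM and 569.6 ± 6.6 TPM. The peptide transporter read 1.81, 3.93 and 4.07 TPM for Tap1 and 1.03, 0.6585 and 1.01 TPM for Tap2. The interferon-inducible proteasome activator genes Psme1 and Psme2 averaged 77.5 ± 5.61 TPM and 59.5 ± 15.3 TPM. Psme2 shares 33.5% of its sequence with Psme2b. Of the inducible proteasome subunits, Psmb8 was listed at 0, Psmb9 gave 19 counts in all with a mean of 0.587 ± 0.377 TPM, and Psmb10 averaged 43.8 ± 4.22 TPM. Nlrc5, the activator of class I genes, averaged 0.4798 ± 0.0446 TPM, and Irf1 13.4 ± 2.06 TPM. Tapbp stood at 26.5 ± 1.13 TPM. In the class II pathway 2 of 11 genes were expressed and 8 were listed at 0, including its activator Ciita and the chains H2-Aa, H2-Ab1 and H2-Eb1. The 2 expressed were the peptide-loading genes H2-DMa and H2-DMb1, with 1.27, 5.996 and 1.78 TPM for H2-DMa, whose mean is 1.525 TPM without replicate 2.

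Among ligands that T cells and phagocytes read, galectins and Sirpa were most abundant. Lgals1, a galectin that binds T-cell glycans, read 1680, 1672 and 1719 TPM, Lgals3 81.9, 82.15 and 88.6 TPM and Lgals9 26.6, 27.99 and 27.3 TPM. Sirpa, the target of the study's other lines, read 160, 171 and 169 TPM in these controls. Cd47, the molecule Sirpa binds on other cells and itself a signal against phagocytosis, read 27.7, 26.9 and 25.6 TPM. Sirpa was 6.24 ± 0.431 times as abundant as Cd47 (SD, n = 3). Cd274, which encodes PD-L1, read 1.725, 1.81 and 1.415 TPM, and Cd276 read 8.21, 8.196 and 9.503 TPM. Tnfsf9, a ligand that stimulates T cells, averaged 9.45 ± 2.89 TPM. Of the 39 checkpoint and costimulatory genes that were matched, 11 were expressed and 14 were listed at 0. The latter included Pdcd1lg2, Cd86, Cd70, Tnfsf4, Vtcn1, Vsir, Cd200, Nt5e, Ido1 and Arg1. Cd80 gave 16 counts in all.

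Of 15 matched ligands of NK cell receptors, 6 were expressed, 4 were listed at 0 and the median was 1.15 TPM. Cadm1 averaged 88.2 ± 4.455 TPM, Nectin2 26.1 ± 1.02 TPM and Pvr, the ligand of the activating receptor Cd226, 23.2 ± 1.575 TPM. Raet1d, a stress-induced ligand of the NKG2D receptor, averaged 13.1 ± 2.58 TPM, and 67.1% of its sequence occurs in other genes, chiefly Raet1e. Raet1e averaged 1.15 TPM, and 0.6825 TPM without replicate 2. H60b averaged 1.37 ± 0.379 TPM, while H60c and Nectin1 were listed at 0. Vim, an intermediate filament placed in this list because NK receptors can bind it at the cell surface, averaged 1913 ± 42.6 TPM. Another 4 ligands listed for NK cells, Raet1a, Raet1b, Raet1c and H60a, could not be matched to a gene. Of 18 complement regulators and cytotoxicity inhibitors, 7 were expressed and 6 were listed at 0. Cr1l, the rodent regulator also known as Crry, averaged 51.85 ± 3.27 TPM and Cd59a 11.2 ± 0.306 TPM, while Cd55 was listed at 0. Serpinb6a, an inhibitor of proteases in cytotoxic granules, averaged 99.3 ± 3.725 TPM and Serpinb9, the granzyme B inhibitor, 2.36 ± 0.498 TPM.

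Of 30 nucleic acid and pattern sensors and their signalling genes, 16 were expressed and 5 were listed at 0. The adaptor Sting, encoded by Tmem173, read 46.8, 46.96 and 47.7 TPM, and its sensor Cgas read 4.92, 5.04 and 6.29 TPM. The RNA-sensing adaptor Mavs averaged 25.01 ± 1.575 TPM, the kinase Tbk1 24.8 ± 1.31 TPM and Irf3 40.04 ± 3.38 TPM. Tlr4, the receptor of bacterial lipopolysaccharide, averaged 19.2 ± 2.94 TPM, and Tlr7, Tlr8 and Tlr9 were listed at 0. Among 71 secreted factors, 22 were expressed and 25 were listed at 0, the latter including Ifnb1, Ifng, Tnf, Il1b, Ccl2 and Cxcl12. Mif was by far the highest at 3307 ± 96.1 TPM, although 60.5% of its sequence is shared, most of it with C230062I16Rik. Vegfb averaged 109 ± 5.43 TPM, and the chemokines Ccl5 and Cxcl10, which draw T cells, read 29.2, 28.9 and 18.2 TPM and 22.6, 23.8 and 21.02 TPM. Their ranges overlapped.

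**Figure D3:**
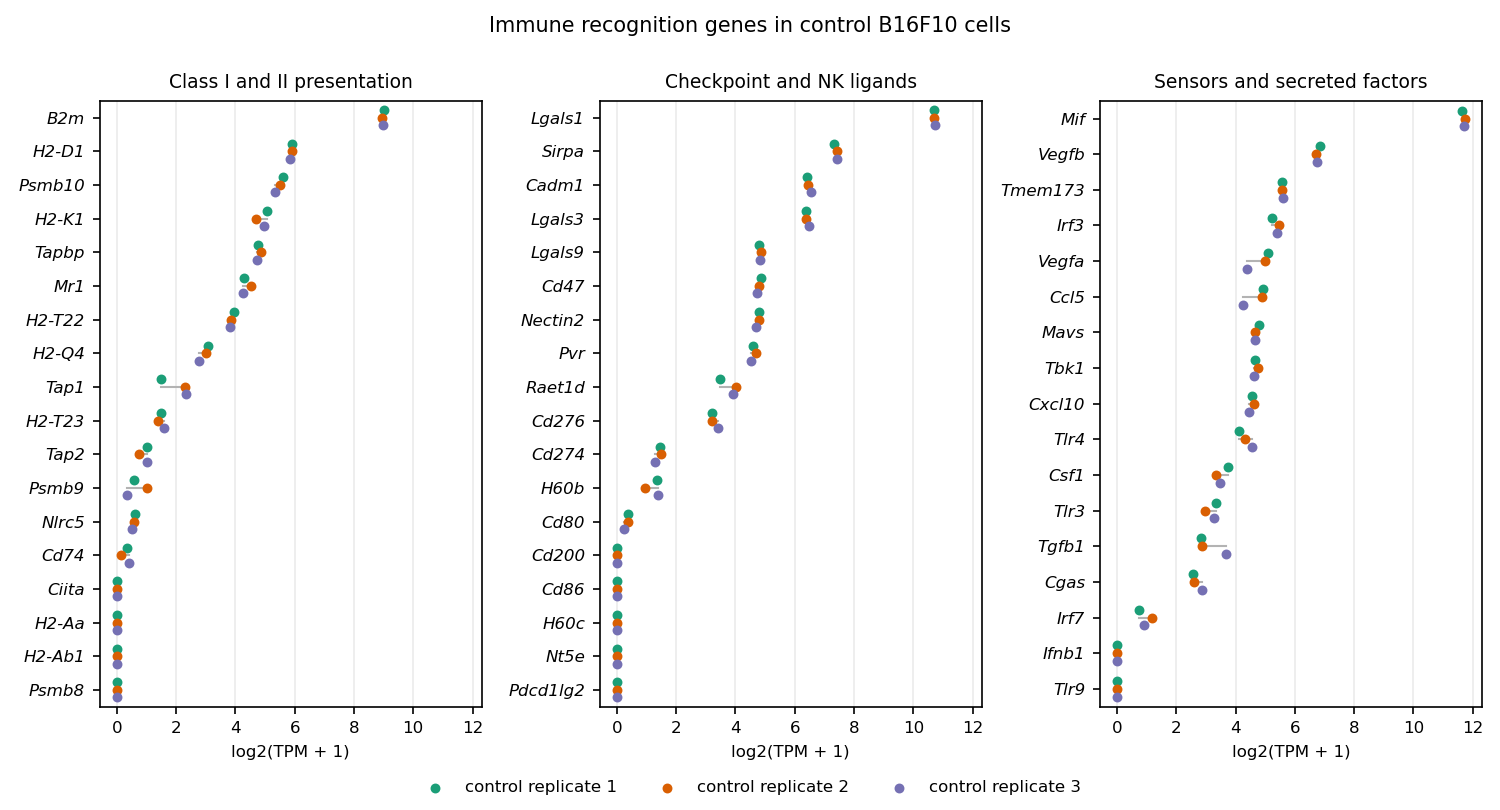
Immune recognition genes in the 3 control libraries, as log2(TPM + 1). Each point is 1 library. B2m and Lgals1 lie highest in their panels together with Mif, and Psmb8, Ciita, H2-Aa, H2-Ab1, Pdcd1lg2, Cd86, Cd200, Nt5e, H60c, Ifnb1 and Tlr9 lie at 0.

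Tumour genes were expressed in 37 of 41 cases, and the 4 others were listed at 0. These were Cdkn2a and Cdkn2b, which encode inhibitors of the cell cycle kinases and the p53 activator Arf, Mycn, and Bcl2a1b. Mtap, the gene next to Cdkn2a on chromosome 4, read 140, 138 and 139 TPM. On the other side of Cdkn2a, the next genes in order, Cdkn2b, Dmrta1, Zfp352, Elavl2 and Izumo3, were all listed at 0, as were the interferon genes beyond Mtap. As given above, 35.4% of protein-coding genes had no count. The kinase that Cdkn2a inhibits, Cdk4, averaged 449 ± 27.75 TPM, and the cyclins Ccnd3, Ccnd2 and Ccnd1 averaged 229.8 ± 10.6 TPM, 203 ± 8.57 TPM and 84.8 ± 3.65 TPM. Trp53 averaged 145 ± 7.13 TPM, its target Cdkn1a 214 ± 4.08 TPM and its inhibitor Mdm2 96.9 ± 2.18 TPM. Braf and Nras averaged 13.9 ± 1.72 TPM and 64.1 ± 8.49 TPM. The highest of the list was Ctnnb1, beta-catenin, at 605 ± 12.1 TPM.

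Genes of invasive or dedifferentiated melanoma were mixed. Vim and the matrix glycoprotein Sparc were high, Sparc at 753 ± 13.01 TPM. Cd44, a hyaluronan receptor, averaged 135 ± 4.54 TPM, N-cadherin (Cdh2) 94.8 ± 1.343 TPM and fibronectin (Fn1) 89.55 ± 1.92 TPM. E-cadherin (Cdh1) averaged 0.689 ± 0.4097 TPM, so Cdh2 exceeded it in each library. Ngfr, a neural crest receptor, stood at 4.299 ± 0.386 TPM, Axl at the level given above, and Wnt5a and Egfr were listed at 0. Across this list, 13 of 20 genes were expressed.

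Markers of other cell types were mostly at or near 0. Of 17 macrophage and myeloid markers, 1 was expressed (Cd68, also lysosomal, 2.93 ± 0.738 TPM) and 10 were listed at 0, including Ptprc, Adgre1, Itgam and Cd14. Their summed level ranged from 4.465 to 11.2 TPM, and the highest sum, in replicate 1, includes S100a8 at 5.46 TPM, which was 0 in the other 2. None of 16 lymphoid markers was expressed and 13 were listed at 0, with a sum of 0.172 to 1.17 TPM. None of 12 epithelial markers was expressed, and 11, all the keratins among them, were listed at 0. Of 13 fibroblast markers, 5 were expressed and Acta2 and Thy1 were listed at 0. The sum of 129.9 to 136.6 TPM was mostly Fbln1, with 106, 111 and 102 TPM, while Dcn and Lum gave 1 and 4 counts in all. Of 12 endothelial markers, 2 were expressed, Eng and Egfl7, the latter with 7.12, 18.2 and 18.9 TPM. The markers summed to 134 to 147 TPM, mostly Eng, with Pecam1, Cdh5, Kdr, Tek, Tie1 and Cldn5 at 0. Of 12 neuron and Schwann cell markers, 7 were expressed, with a sum of 336 to 341 TPM. They were led by Tubb3 at 137 ± 2.01 TPM and S100b, also a melanoma marker, at 91.03 ± 2.598 TPM, while Rbfox3 and Snap25 were at 0. Germline genes were nearly silent, with 1 of 25 expressed (Rhox5, 1.74 ± 0.676 TPM) and 19 listed at 0.

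The Y-linked marker genes Ddx3y, Uty, Kdm5d, Eif2s3y and Sry were listed at 0. Xist, which silences an X chromosome in female cells, gave 7 counts in all, every one in replicate 1, where it read 0.621 TPM. Their X-linked counterparts Ddx3x, Eif2s3x and Kdm5c averaged 211 ± 4.11 TPM, 147 ± 6.24 TPM and 20.45 ± 1.63 TPM. Eif2s3x shares 35.6% of its sequence with other annotated genes, mostly Gm2223. Of the 146 protein-coding genes annotated on the Y chromosome 1 was expressed, Gm47283, at 115 ± 11.05 TPM, and 46.8% of its sequence also occurs in another annotated gene, Gm21887.

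Seen over all genes, 11353 of 51717 were expressed, 10696 of them protein-coding. Of all genes, 3875 averaged 1 to 10 TPM, 6739 averaged 10 to 100 TPM, 1356 averaged 100 to 1000 TPM and 166 averaged more. The median of the expressed genes was 22.8 TPM, so every melanocyte marker lay above it. The 10 most abundant genes held 8.05 ± 0.266% of all TPM and the 100 most abundant 33.0 ± 0.239% (SD, n = 3). Cytosolic ribosomal protein genes held 18.3 ± 0.266%, and mitochondrially encoded genes 4.83 ± 0.209%.

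The most abundant nuclear mRNA was that of ferritin light chain, Ftl1, with 13535, 13631 and 13604 TPM. Ferritin heavy chain, Fth1, stood at 4599 ± 63.99 TPM, and its range overlapped that of Tyrp1. Eef1a1, the elongation factor that brings tRNAs to the ribosome, read 10330, 10376 and 10164 TPM, and the glycolytic enzyme Gapdh 6009, 5955 and 5903 TPM. Of the 20 nuclear genes with the highest means, 10 encode ribosomal proteins, from Rplp1 at 8360 ± 775 TPM to Rpl13a at 3909 ± 263 TPM (SD, n = 3). Tyrp1 and Pmel were among the 20, and Dct, whose range overlapped that of Pmel, was not. Ftl1, Eef1a1 and Rplp1 share 64.1, 51.5 and 75.1% of their sequence with other annotated genes, chiefly Ftl1-ps1, Gm13456 and Gm10073, so their levels depend on how reads were divided.

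Among the 20 leading nuclear genes, 3 are annotated pseudogenes. Gm28661 and Gm10925, on chromosome 1, are copies of mitochondrial DNA, and 100% of their 31-base words occur in mt-Co2 and in mt-Atp6. The split between copy and original was not stable. Gm10925 read 6877, 2307 and 3038 TPM, with a mean of 4074 TPM, or 2672 TPM without replicate 1. Its original mt-Atp6 read 5345, 9588 and 8850 TPM. The sum of the pair read 12222, 11895 and 11887 TPM, with a coefficient of variation (CV, SD over mean) of 1.59%, against 28.6 and 60.3% for the members. For mt-Co2 and Gm28661 the sum had a CV of 2.26%, against 46.2% for mt-Co2 alone. Ppia and its processed copy Gm10123 read 8015, 8043 and 7969 TPM as a sum. In these mitochondrial pairs, mt-Atp6 and mt-Co2 with their copies, the sum varied less than either member. In another such pair the sum was hardly steadier than the original: mt-Nd4l and its copy Gm10222 had CVs of 16.6 and 66.7%, and their sum, with 3445, 2552 and 2746 TPM, had one of 16.1%. Of the other mitochondrial genes, mt-Co3, mt-Co1 and mt-Cytb had CVs of 2.71, 3.71 and 3.11%, while mt-Rnr1 and mt-Atp8 varied more, with 12.2 and 10.7%.

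Most genes were represented mainly by 1 transcript. Among 7706 genes with a mean of 10 TPM or more and at least 2 annotated transcripts, the leading transcript held a median of 77.2% of the gene's TPM. It held 90% or more in 2511 genes (32.6%) and under 50% in 1408 (18.3%). The same transcript led in all 3 libraries in 6714 genes (87.1%), and it was annotated as protein-coding in 7238 (93.9%).

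Pigment genes differed in this respect. Mlana-201 held 94.7, 94.96 and 95.4% of Mlana, and Mlph-201 held 99.6, 99.5 and 98.1% of Mlph. Tyrp1 was spread over 3 coding transcripts, Tyrp1-201 at 45.2%, Tyrp1-203 at 27.6% and Tyrp1-202 at 25.4% on average. Dct-201 held 51.8, 50.9 and 51.5% of Dct, followed by Dct-203, annotated without a coding frame, at 36.9%. Tyr-201 held 57.1, 58.5 and 52.2% of Tyr, followed by the non-coding Tyr-202 at 38.2%. A part of the summed level of both enzymes was thus assigned to transcripts without a coding annotation. Trpm1 was led by Trpm1-212, a transcript with a retained intron, with 54.8, 51.4 and 58.9%. Pmel-201 held 70.9% in replicate 1 and 63.6 and 63.8% in the other 2, with Pmel-202, of 651 bases, holding most of the rest. By counts the short Pmel-202 weighs less, since TPM divides by length.

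By TPM, some genes had no clearly leading transcript. Sirpa was one of the 6 lowest among genes averaging 100 TPM or more: Sirpa-214 held 25.7, 16.3 and 19.5%, Sirpa-204 10.4, 24.6 and 17.3%, and 11 of its 14 transcripts were above 0. The order of the first 2 changed between libraries. The others were Ncor1 (15.2% for its leader), Acin1 (15.7%), Pcbp2 (19.9%), Tardbp (20.5%) and Trip12 (23.3%), regulators of transcription, RNA processing or protein turnover with 18 to 31 annotated transcripts. For Cd47, Cd47-205 held 40.9, 25.9 and 20.8%, and for Myo5a the full-length Myo5a-201 of 11702 bases held 17.3, 18.5 and 18.4%. By counts, however, Myo5a-201 held 53.1% of Myo5a on average, and Cd47-201, of 5250 bases, held 56.8% of Cd47. The 801-base Myo5a-211, with a retained intron, averaged 28.3% of the TPM of Myo5a and 3.72% of its counts. Met-203 held 89.7, 88.5 and 90.2% of Met. For Trp53 the leader changed with the library: Trp53-203 held 68.4, 42.6 and 64.6% and Trp53-201, 1 base longer, 21.3, 48.1 and 26.3%.

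**Figure D4:**
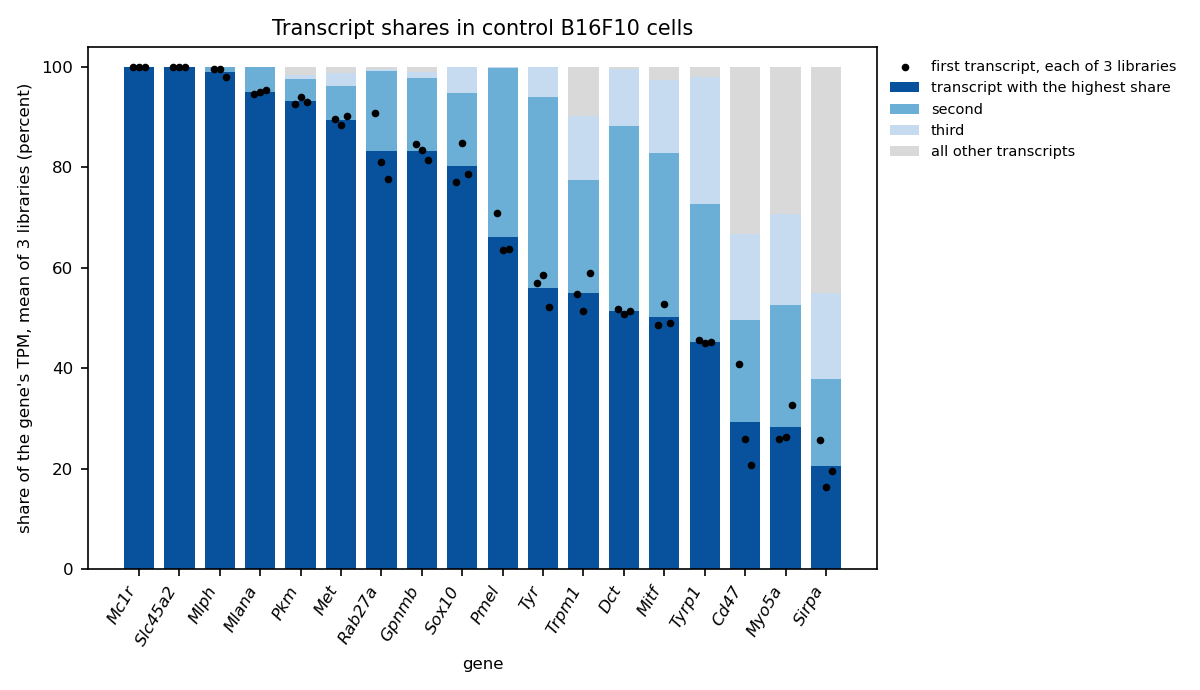
Share of each gene's TPM held by its 3 leading transcripts and the remaining ones, as the mean of the 3 control libraries (percent). Black points give the leading transcript in each library. Mc1r and Slc45a2 have 1 annotated transcript and lie at 100%, and Sirpa is lowest at 20.5%.

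The 3 libraries agreed closely for abundant genes and less for rare ones. Over the 12136 genes with a mean of 1 TPM or more, Pearson's r of log2(TPM + 1) across genes was 0.972, 0.973 and 0.974 for the 3 pairs of libraries, given as a description. Between 454 and 511 genes (3.74 to 4.21%) differed by more than 2-fold in TPM + 1 in a pair. The added 1 makes differences between low levels smaller, so this count is not one of 2-fold differences in TPM itself. The median CV was 21.4% for genes of 1 to 10 TPM, 7.70% from 10 to 100, 3.96% from 100 to 1000 and 3.13% above. The estimated counts differed by more than sampling noise, with a chi-square per degree of freedom of 4.81 to 6.44, so no pair looked like 1 library deposited 2 times. These counts include how reads were divided between near-identical genes. In replicates 1 and 2, mt-Atp6 had 26128 and 45058 counts and its copy Gm10925 33372 and 10755. How much of the excess comes from such division was not tested. The common biological CV estimated from counts by edgeR was 7.42%.

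In TPM, melanocyte genes varied about as much as other genes of their level. Dct had a CV of 0.583% and Tyrp1 2.155%, and Pmel 6.99%, with replicate 1 the low one. Pmel-201 read 2520, 2586 and 2519 TPM, and the 651-base Pmel-202 1028, 1479 and 1424 TPM. Sox10, Mitf and Tyr had CVs of 4.5, 4.92 and 5.06%, slightly above the median of their band. Tyr-201 read 84.2, 83.3 and 82.1 TPM. The 516-base Tyr-203 read 5.70, 3.26 and 18.1 TPM from 16.6, 8.73 and 60.2 counts. The lowest TPM CVs among genes of 10 TPM or more were 0.0426 to 0.186%. The genes were C1qbp with 264, 264.5 and 265 TPM, Ostm1, Stx6, Atp1b3, Slfn3, Csnk1a1, Mdh2 and Rarg. Their CVs in CPM were all higher, from 0.343% for Atp1b3 to 5.49% for Stx6, with 3.21% for Csnk1a1. These genes were picked as the lowest of many TPM CVs, so they are not shown to be invariant. C1qbp and Mdh2 are mitochondrial proteins.

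Among the 8 most variable genes of 10 TPM or more, some differed in reads and some in TPM alone. In the first kind, the reads themselves differed. Abhd4, a lipase of lipid metabolism, read 45.3, 1.499 and 5.16 TPM, and Abhd4-201 was assigned 936 counts in replicate 1 and none in the others. Amd1, the decarboxylase that feeds polyamine synthesis, read 9.34, 1.64 and 66.1 TPM, and 82.8% of its sequence is shared, mainly with Amd2, which stayed near 0.75 TPM. Magt1, a magnesium transporter, read 23.8, 23.5 and 90.1 TPM, with 580, 670 and 3850 counts. In the second kind, the counts were steady and the TPM was not. Sipa1, a GTPase activator, read 17.2, 90.2 and 21.3 TPM with a CV of 4.63% in CPM. Its 143-base transcript Sipa1-209 was assigned 4 counts, worth 71.6 TPM, in replicate 2 and none in the others. Arap1 read 36.8, 12.3 and 9.26 TPM with a count CV of 6.57%, and 1 count on the 157-base Arap1-218 was worth 24.2 TPM in replicate 1. St6galnac3 likewise had a count CV of 16.4% and a TPM CV of 103%. The remaining 2 were Hotairm1, an antisense RNA of the Hoxa cluster with 9 to 41 counts, and Asdurf, all of whose sequence lies in Asnsd1.

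**Figure D5:**
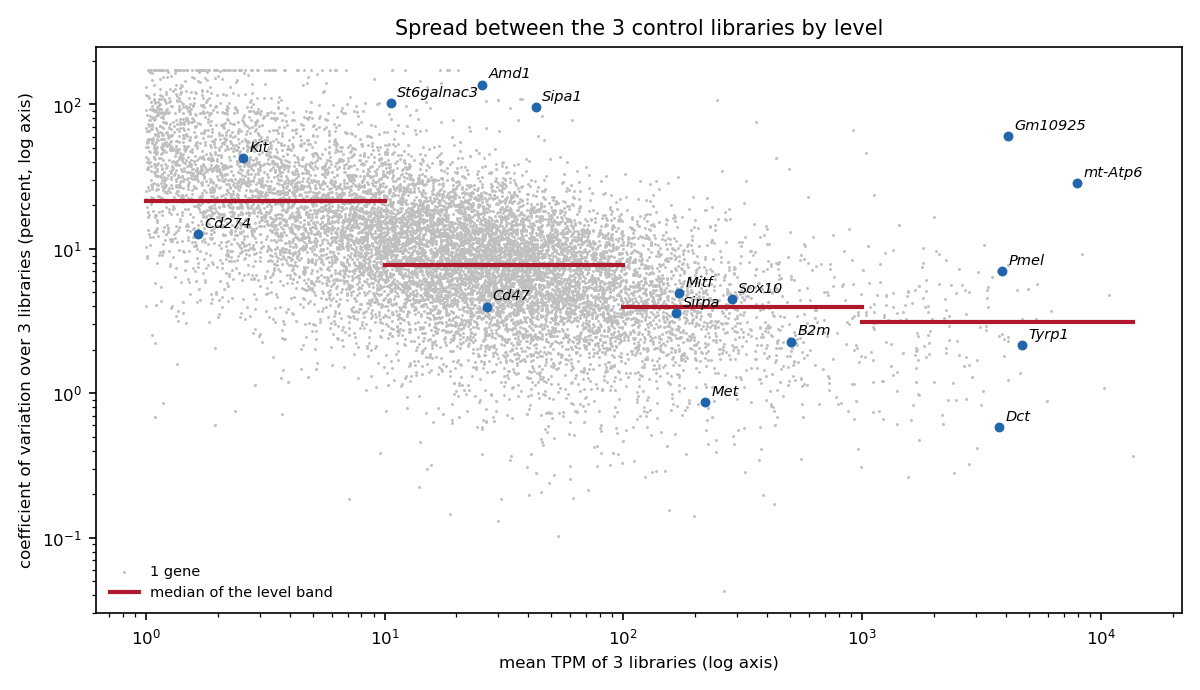
Coefficient of variation over the 3 control libraries (percent, log axis) against mean TPM (log axis). Each grey point is 1 of 12136 genes, red lines give the median of each level band (21.4, 7.70, 3.96 and 3.13%), and blue points are named genes. Gm10925 and mt-Atp6, which share sequence, stand above other genes of their level.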

How the data were processed

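RNA-seq of 3 libraries of the control line was used. The submitters' processing notes name the build mm39 and, as software, Salmon 1.4.0, DESeq2 1.34.0 and MultiQC 1.11. For the annotation release, read trimming and Salmon's settings, nothing is given in the sources used here. Each deposited table lists 140789 transcripts with length, effective length, TPM and estimated counts, as Salmon gives them. Per the file headers, the deposited TPM values are normalised within each library to transcript length and to a sum of 1000000, and the estimated counts of the authors' tables are reads divided among transcripts, without normalisation. An abundant short transcript therefore weighs more in TPM than in counts.

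From these tables, TPM and estimated counts were summed per gene with GENCODE M21 (GRCm38), which matched 137161 transcripts (97.4%) to 51717 genes. The unmatched transcripts held 0.583 to 0.654% of counts. As the builds differ, no gene coordinates are given except for the RefSeq promoters on GRCm38.p6. Of the 7 melanocyte markers, 4 had a promoter in that table. Sequence shared between genes was counted in words of 31 bases over M21 transcripts. Genes were averaged over the 3 libraries with SD. The common biological CV came from edgeR 4.0.16 on rounded counts, tested on simulated data first. Other values were computed with Python 3.11.15 and pandas 2.3.3.

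Genes named were drawn from the 20 of highest mean (nuclear and mitochondrial apart), and from the 8 highest and the members at 0 in each gene list. Further sources were every melanocyte marker, the 8 most and the 8 least variable genes of 10 TPM or more, and a list for transcripts. The last source was the 6 genes of 100 TPM or more with the lowest leading share. Not every gene of these sets is named in the text. Other genes were named after their values were seen. The gene lists and the choice of these libraries were made with earlier results of these data known. Alternatives were other scales, thresholds, filters, pseudocounts (1 in the main values) and leaving out each replicate. The tables of the other 6 libraries were not used.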

Additional observations from a re-analysis of the deposited data

Results flagged for a closer look

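Of the 3628 transcripts in the deposited tables that could not be tied to a gene of the annotation used, 130 were at 1 TPM or more in all 3 control libraries, and 3222 had no count in any. These 130 carry signal outside the gene levels described above. In all, the unmatched transcripts held 0.48 to 0.541% of TPM.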

How the results depend on the processing

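Leaving out the mitochondrial genes, keeping protein-coding genes only or using CPM moved the summed level of the 7 melanocyte markers from 14798 to 15631, 15931 and 16949. Restricted to protein-coding genes, 7719 genes were at 0 in place of 33106. As a share of counts, the leading 10 and 100 genes held 5.55 and 19.24% (each ranked by counts), the mitochondrial genes 2.15% and the leading transcript a median of 88.5%. Without mitochondrial genes the leading 100 held 31.98% of TPM, and among protein-coding genes 33.5%, with 5.13% for the mitochondrial genes. With a minimum mean of 1 or 100 TPM the leading transcript held 75.8 or 85.8%. The mean r between libraries, 0.973, was 0.939 with a pseudocount of 0.1, 0.992 without a filter on low genes, 0.981 from a mean of 10 TPM and 0.992 for CPM. The median CV over all genes from 1 TPM, 9.20%, was 18.0, 6.79 and 6.55% under the last 3 of these settings. The biological CV was 8.76% without a filter and 6.48% from 10 TPM. Leaving out 1 replicate in turn gave marker sums of 14738 to 14860, 11532 to 11554 expressed genes, 33955 to 34125 genes at 0, top-10 shares of 7.92 to 8.21%, top-100 shares of 32.9 to 33.2%, mitochondrial shares of 4.75 to 4.95%, leading shares of 76.7 to 77.4%, r of 0.972 to 0.974, median CVs of 7.13 to 7.59% and biological CVs of 7.03 to 7.93%. The median CVs with 1 replicate left out rest on 2 libraries each, so they are not comparable with the 9.20% from 3. CPM moved 156 of 227 named genes by over 1.5-fold. Rescaling TPM moved none of 227 without mitochondrial genes and none of 221 over protein-coding genes, and leaving out replicate 1, 2 or 3 moved 11, 7 and 5. No paired analysis was possible because no groups were compared.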

Other observations

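Long non-coding RNA genes, of which those below were named after their values were seen, held 1.06 ± 0.0203% of all TPM (SD, n = 3). Of 9759 such genes, 386 were expressed. The highest was Gm29084, annotated as antisense, with 1746, 1723 and 1712 TPM. Gas5, a host gene of small nucleolar RNAs, read 702.5, 792 and 698 TPM. Bc1, a short RNA known from neurons, read 453, 726 and 605 TPM, the widest spread of the 8 highest. AI506816 read 499, 488 and 485 TPM, and Snhg6, another host of small nucleolar RNAs, read 331, 437 and 421 TPM. Because the libraries do not keep strand, the level of Gm29084 cannot be told apart from that of a gene on the opposite strand.

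The share of protein-coding genes that were expressed differed between chromosomes. It was 60.1% of 641 genes on chromosome 12 and 55.9% of 1036 on chromosome 8, against 39.3% of 1997 on chromosome 7, 40.4% of 886 on chromosome 14 and 35.7% of 920 on the X chromosome. All 13 protein-coding genes of the mitochondrial genome were expressed. Pseudogenes held 4.55 ± 0.398% of TPM (SD, n = 3), although 220 of 13186 were expressed. The 3 nuclear copies of mitochondrial genes accounted for 1.58 ± 0.305%, with 1.93% in replicate 1 and 1.44 and 1.37% in the other 2.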
